A study of Mus musculus with 24 samples.

Results

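The TAM family was taken as 5 genes, the receptor kinase genes Mertk, Axl and Tyro3 and the ligand genes Gas6 and Pros1, with every probe that the platform annotation gives to them. They had 6 probes, out of 34885 probes with 1 gene symbol for 19057 genes, and all 5 genes were among the 13748 tested. The family was selected on the log2 difference of Mertk between morphine and saline injection on these same arrays, so the injection differences of Mertk are given as a description with no test. The other 4 genes entered by annotation alone.

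RNA came from the striatum, whose most common neuron is the medium spiny neuron, of C57BL/6J mice aged 6 to 10 weeks. The mice of each group had drunk 1 solution chronically and were killed 4 h after 1 injection, and each group gave 6 arrays. They were morphine drinkers injected with morphine (20 mg/kg, intraperitoneal), morphine drinkers injected with saline (10 ml/kg), saccharin drinkers injected with morphine (20 mg/kg) and saccharin drinkers injected with saline (10 ml/kg). Morphine is an opioid agonist and saccharin a sweetener, the control drink. Comparing injections asks for the acute effect of morphine, and comparing drinks for the effect of taking it chronically. The arrays were Illumina beadchips, and each of 6 chips held 1 array of every group. The length of drinking and the intake are not given in the sources used here.

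Values are log2 intensities after background correction and quantile normalization, and a difference is the mean under the first condition minus that under the second. Median intensity before normalization ranged from 164 to 543 over the 24 arrays. On 2 arrays of morphine drinkers on chip 2, replicate 31 (morphine injection) and replicate 32 (saline injection), the mean over 10 medium spiny neuron genes was 9.73 and 9.80, against 12.18 to 13.20 on the other 22. The mean over 4 genes of cortical projection neurons was 12.35 and 12.13 on them, against 8.64 to 11.87 elsewhere. These 2 arrays, labelled striatum, thus had the lowest mean of the medium spiny neuron genes and the highest of the cortical genes. The cause was not tested, and results that rest on them are given with and without them. The probes read RNA of the whole tissue, in which fewer cells of a type and less RNA per cell cannot be told apart.

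TAM receptors are tyrosine kinases of the cell surface. Their ligands, Gas6 and protein S (the product of Pros1), carry a vitamin K-dependent domain that holds on to phosphatidylserine, the lipid that dying cells and shed membranes expose, and so bridge it to the receptor. Binding leads to engulfment of the exposed material and dampens innate immune responses. Gas6 activates all of the receptors, and protein S activates Tyro3 and Mertk. In the brain, Mertk is known from astrocytes and microglia, where it takes part in the clearance of dying cells and synapses, Axl from microglia and blood vessels, and Tyro3 mainly from neurons.

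The 250 bases upstream of the annotated starts of Mertk, Gas6 and Pros1 are printed because the injection difference lay in Mertk while its ligand genes showed none that passed the test. Capitals mark each GGGCGG, the core of a GC box, read on either strand (CCGCCC is its complement). The sequences are RefSeq's on build GRCm38.p6. The window of Axl lies partly, and that of Tyro3 wholly, inside a longer annotated span of the same gene, and neither is printed.
Mertk, chr2:128698665-128698914, plus strand: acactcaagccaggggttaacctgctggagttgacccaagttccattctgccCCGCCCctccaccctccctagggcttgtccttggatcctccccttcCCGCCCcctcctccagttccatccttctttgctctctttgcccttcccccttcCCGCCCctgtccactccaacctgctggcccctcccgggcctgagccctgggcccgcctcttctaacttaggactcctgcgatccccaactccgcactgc
Gas6, chr8:13494536-13494785, minus strand: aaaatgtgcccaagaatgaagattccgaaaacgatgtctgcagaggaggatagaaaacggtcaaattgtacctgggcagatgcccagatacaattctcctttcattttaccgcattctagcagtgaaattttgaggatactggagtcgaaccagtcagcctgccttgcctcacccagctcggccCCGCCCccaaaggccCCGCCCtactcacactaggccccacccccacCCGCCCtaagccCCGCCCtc
Pros1, chr16:62854057-62854306, plus strand: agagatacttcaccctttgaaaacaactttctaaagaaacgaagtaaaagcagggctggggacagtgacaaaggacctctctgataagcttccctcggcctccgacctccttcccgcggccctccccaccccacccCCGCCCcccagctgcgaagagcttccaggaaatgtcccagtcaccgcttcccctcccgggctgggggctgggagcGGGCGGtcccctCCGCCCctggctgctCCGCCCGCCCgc

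All 5 genes matched an entry of the promoter table. GGGCGG was found on either strand 3 times in the window of Mertk, 1 time in that of Axl and 3 times in that of Tyro3. It was found 4 times in that of Gas6 and 5 times in that of Pros1, with overlapping matches counted. It was found in 32.7% of 32851 windows of the same length. Neither AGAACA, a glucocorticoid receptor half-site (16.1% of windows), nor AGGTCA, a nuclear receptor half-site (14.0%), nor TATAAA, the TATA box (12.4%), was found on either strand in any of the 5 windows. The window of Mertk held 7 CpG and 63.6% G or C, that of Gas6 10 CpG and 54.8%, and that of Pros1 15 CpG and 64.4%, against medians of 6 CpG and 52.4% over all windows. These counts describe letters in a window and locate no binding site.

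Mertk was measured by 1 probe (ILMN_2714638). In morphine drinkers its log2 intensity was 10.81 at the lowest, 11.02 at the median and 11.35 at the highest after the morphine injection, against 10.35, 10.53 and 10.67 after saline. In saccharin drinkers it was 10.76, 11.05 and 11.33 after the morphine injection, against 10.48, 10.56 and 10.61 after saline. Every one of the 12 arrays of morphine-injected mice lay above every one of the 12 arrays of saline-injected mice, by 0.0912 at the closest, whichever drink the mice had taken. The gap between the closest arrays was 0.1465 in morphine drinkers and 0.1442 in saccharin drinkers. Mertk was chosen on this difference, so the separation is a description. The share of all genes whose groups separate in this way was not counted.

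The difference between injections was 0.53 (SE 0.0808), or 1.44-fold, in morphine drinkers and 0.48 (SE 0.0808), or 1.40-fold, in saccharin drinkers. Averaged over drinks it was 0.50 (SE 0.0571), or 1.42-fold. Mertk was higher after morphine on 6 of 6 chips in both kinds of drinkers. The difference on single chips ran between 0.37 and 0.74 in morphine drinkers (SD 0.121) and between 0.23 and 0.84 in saccharin drinkers (SD 0.224). Without the 2 arrays of chip 2 that stand apart, the difference was 0.53 in morphine drinkers and 0.51 averaged over drinks.

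Over all genes tested, 9 of 13748 (0.0655%) were past an adjusted p of 0.05 by limma in morphine drinkers, all of them higher after the morphine injection. In saccharin drinkers 51 (0.371%) were, 41 of them higher (0.298%) and 10 lower (0.0727%), and averaged over drinks 95 (0.691%), 71 of them higher (0.516%) and 24 lower (0.175%). Mertk was 1 of these in each comparison, as its choice fixed. By size it stood at place 9 of 9 among the genes higher in morphine drinkers, 33 of 41 in saccharin drinkers and 33 of 71 averaged over drinks. It was not among the genes past the threshold in morphine drinkers when chip 1, 4 or 6 was left out (difference 0.53, 0.53 and 0.48), nor in saccharin drinkers when chip 1, 4, 5 or 6 was left out (0.50, 0.47, 0.41 and 0.46).

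**Figure D1:**
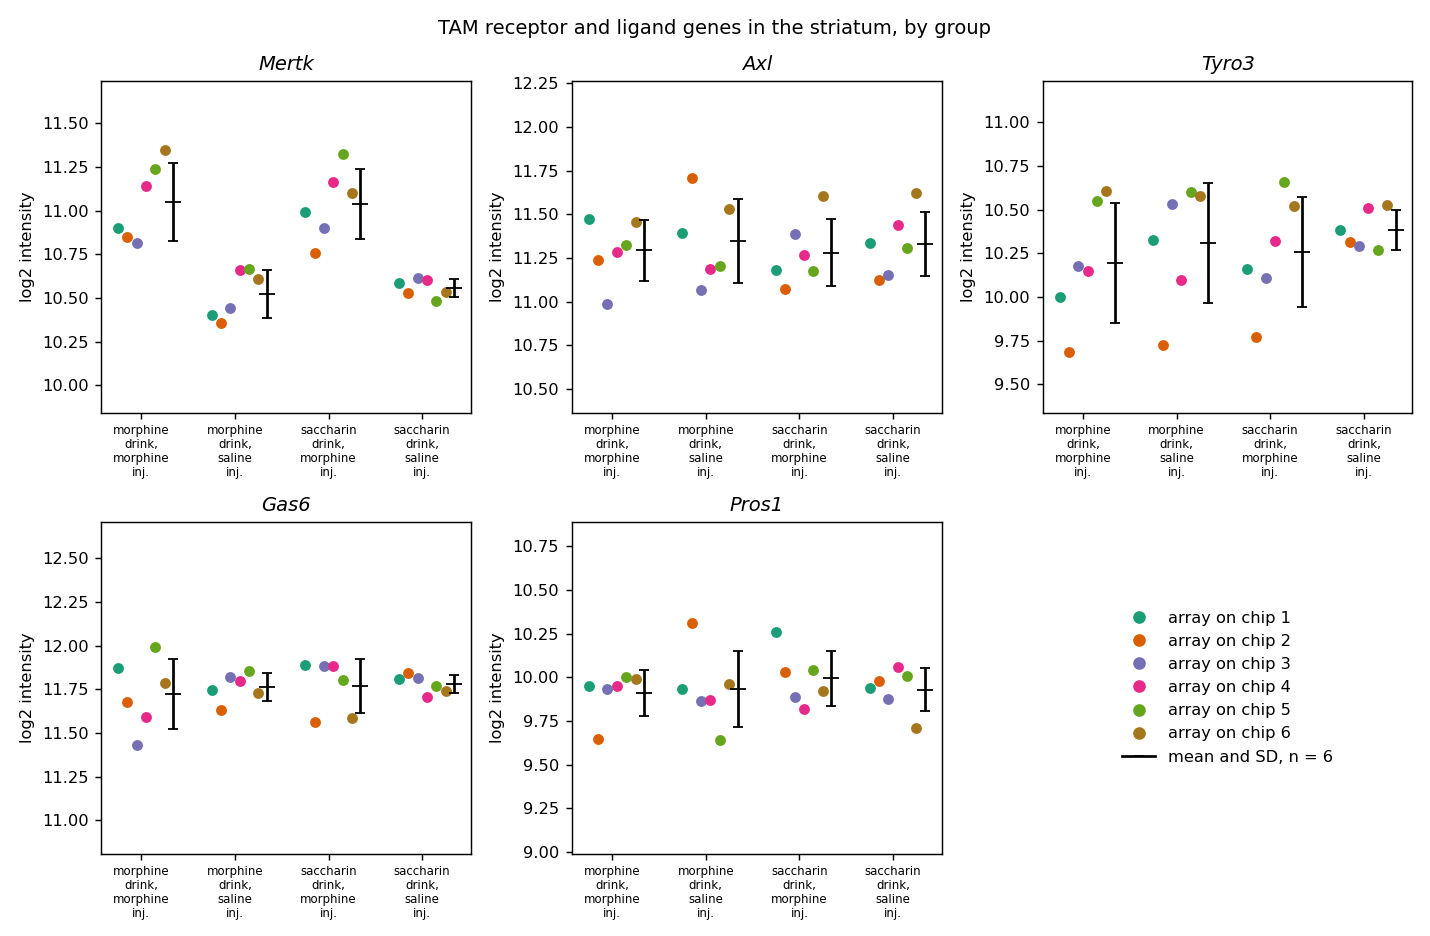
Log2 intensity (vertical axis) of the 5 genes in the 4 groups (horizontal axis), 1 point per array coloured by chip, with the mean and SD of 6 arrays beside each group. For Mertk, chosen on this difference, the 12 morphine-injected arrays lie above the 12 saline-injected arrays by at least 0.0912. The groups overlap for Axl, Tyro3, Gas6 and Pros1. The axes cover the same span for each gene but are not comparable in level between genes.

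The drink was not used to choose Mertk, and its effect was tested. Mertk averaged 11.05 ± 0.224 in morphine drinkers and 11.04 ± 0.201 in saccharin drinkers after the morphine injection (SD, n = 6 each), a difference of 0.01 (SE 0.0808, adjusted p = 0.990 by limma). After saline it averaged 10.52 ± 0.139 in morphine drinkers and 10.56 ± 0.0516 in saccharin drinkers, a difference of -0.04 (SE 0.0808, adjusted p = 0.987). The 95% interval ran from -0.16 to 0.18 after the morphine injection and from -0.21 to 0.13 after saline. The response to the injection in morphine drinkers minus that in saccharin drinkers was 0.04 (SE 0.114, 95% interval -0.20 to 0.28, adjusted p = 0.994), positive on 4 of 6 chips. A smaller difference between the 2 kinds of drinkers was not detectable with 6 arrays a group. In these comparisons 0 of 13748 genes (0%) passed, while 758 had an unadjusted p under 0.05 for drink after the morphine injection, 633 for drink after saline and 723 for the interaction.

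Axl, the receptor known for its induction in activated microglia, had 2 probes. The brighter (ILMN_2651715) read 10.98 at the lowest, 11.30 at the median and 11.47 at the highest in morphine drinkers after the morphine injection, against 11.07, 11.30 and 11.71 after saline. In saccharin drinkers it read 11.07, 11.22 and 11.60 after the morphine injection, against 11.12, 11.32 and 11.62 after saline. The groups overlapped throughout. The difference between injections was -0.06 (SE 0.102, adjusted p = 0.997 by limma) in morphine drinkers and -0.05 (SE 0.102, adjusted p = 0.949) in saccharin drinkers. The highest Axl value after saline in morphine drinkers was that of replicate 32, and without the 2 arrays of chip 2 that stand apart the difference in morphine drinkers was 0.03, on the other side of 0.

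The second Axl probe (ILMN_2557510) was dim. Its mean over 24 arrays was 6.69, below the filter of 7.05, and it was not tested. Its group means were 6.66 in morphine drinkers after the morphine injection and 6.74 after saline, and 6.65 in saccharin drinkers after the morphine injection and 6.69 after saline. The spread within a group was up to 0.372 (SD), and these groups overlapped too.

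Tyro3 (ILMN_2449917), the receptor most tied to neurons, had an SD within a group of 0.113 to 0.346. In morphine drinkers it read 9.69 at the lowest, 10.16 at the median and 10.61 at the highest after the morphine injection, against 9.73, 10.43 and 10.60 after saline. In saccharin drinkers it read 9.77, 10.24 and 10.66 after the morphine injection, against 10.27, 10.35 and 10.53 after saline. The lowest value in each of the first 3 of these groups was the array of chip 2, and the saccharin drinker injected with saline on that chip stood at 10.31. The difference between injections was -0.12 (SE 0.111, adjusted p = 0.938 by limma) in morphine drinkers and -0.13 (SE 0.111, adjusted p = 0.843) in saccharin drinkers. Averaged over drinks it was -0.12 (SE 0.0787, 95% interval -0.29 to 0.04, adjusted p = 0.762), lower on 4 of 6 chips.

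Gas6 (ILMN_2686327), the ligand of all the TAM receptors, had the lowest SD of the 5 genes over the 24 arrays, 0.128. In morphine drinkers it read 11.43 at the lowest, 11.73 at the median and 11.99 at the highest after the morphine injection, against 11.63, 11.77 and 11.85 after saline. In saccharin drinkers it read 11.56, 11.84 and 11.89 after the morphine injection, against 11.71, 11.79 and 11.84 after saline. The ranges after saline lay inside those after the morphine injection. The difference between injections was -0.04 (SE 0.0859, adjusted p = 0.997 by limma) in morphine drinkers and -0.01 (SE 0.0859, adjusted p = 0.986) in saccharin drinkers. The spread over arrays was not tested.

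Pros1 (ILMN_1235499), the gene of the anticoagulant protein S, read 9.65 at the lowest, 9.95 at the median and 10.00 at the highest in morphine drinkers after the morphine injection, against 9.64, 9.90 and 10.31 after saline. In saccharin drinkers it read 9.82, 9.98 and 10.26 after the morphine injection, against 9.71, 9.96 and 10.06 after saline. The groups overlapped. The difference between injections was -0.02 (SE 0.105, adjusted p = 0.999 by limma) in morphine drinkers and 0.07 (SE 0.105, adjusted p = 0.920) in saccharin drinkers. Both the lowest value after the morphine injection and the highest after saline in morphine drinkers came from the 2 arrays of chip 2 that stand apart. Without those arrays the difference in morphine drinkers was 0.11 (adjusted p = 0.861), and Pros1 was higher after morphine on all of the other 5 chips.

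Axl, Tyro3, Gas6 and Pros1 gave 0 of 4 genes past the threshold by limma in either kind of drinkers and averaged over drinks, and 0 of 4 at an unadjusted p under 0.05 (lowest p 0.143, Tyro3 averaged over drinks). Over all 13748 genes the shares past the threshold were 0.0655%, 0.371% and 0.691%, so few sets of 4 genes would hold 1, and the count of 0 says nothing particular about these genes. The 95% intervals averaged over drinks were -0.20 to 0.10 for Axl, -0.29 to 0.04 for Tyro3, -0.15 to 0.10 for Gas6 and -0.13 to 0.18 for Pros1. For drink, the adjusted p of these 4 genes was 0.916 or more in each comparison, and for the interaction 0.991 or more. Exact two-sided sign flips over the 6 chips, which can give no p below 0.03125, gave p of 0.1875 or more for the 4 genes in all 7 comparisons and for Mertk in those of drink and the interaction, and adjusted p of 1 over 32 tests.

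**Figure D2:**
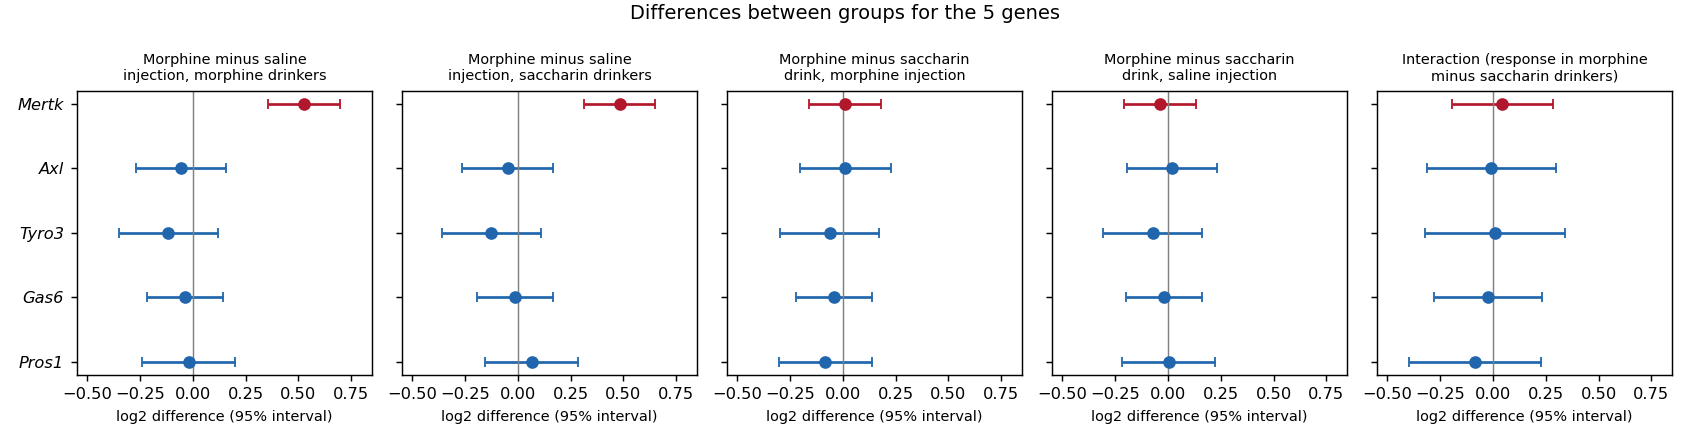
Log2 difference (horizontal axis) of each gene (rows) in 5 comparisons (panels), with bars for the 95% interval of the fit over 24 arrays. The injection differences of Mertk (red) stand at 0.53 and 0.48, which its choice fixed, and every other interval includes 0.

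The injection accounted for 72.8% of the variance of Mertk over the 24 arrays, and the chip for 16.1%. For Axl these shares were 2.02% and 44.4%, for Tyro3 4.67% and 65.0%, for Gas6 0.998% and 24.8%, and for Pros1 0.579% and 10.2%. The share of Mertk for injection restates the difference it was chosen on. Chip has 5 degrees of freedom and injection 1, so the 2 shares of a gene cannot be set against each other, and neither was tested.

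The Mertk difference rested on the normalization on some chips. Deposited intensities, which are not normalized between arrays, gave a ratio of morphine-injected over saline-injected of 0.718 on chip 2 and between 1.13 and 1.59 on the other 5 chips in morphine drinkers. In saccharin drinkers the ratio was 0.818 on chip 3 and between 1.17 and 2.07 on the other 5. It was thus below 1 on 1 chip of 6 in each kind of drinkers, though not on the same chip. On that chip 2 pair the median of all probes had a ratio of 0.758, and on that chip 3 pair 0.951. The Mertk ratio lay below that of the medians in both pairs, while the normalized differences there were 0.50 and 0.28. The cause was not tested. On the chip 1 pair of saccharin drinkers, with the highest Mertk ratio, the median of all probes had a ratio of 1.61. On chips 4 to 6, where the ratio of the medians lay between 0.856 and 1.08, the Mertk ratio lay between 1.39 and 1.59 in all 6 pairs.

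**Figure D3:**
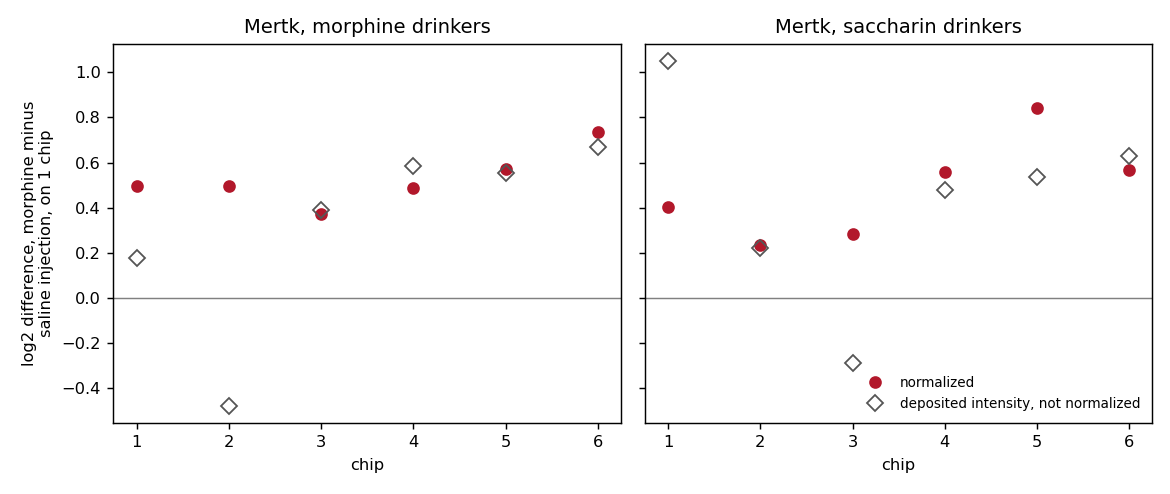
Log2 difference of Mertk between the morphine-injected and the saline-injected array of each chip (vertical axis, chips along the horizontal axis), for morphine drinkers and saccharin drinkers, after normalization (filled) and in the deposited intensities (open). All 12 normalized differences lie above 0, between 0.23 and 0.84, and the open points fall below 0 on chip 2 in morphine drinkers and chip 3 in saccharin drinkers.

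Whether the members varied together from array to array was tested over the 24 arrays after group and chip means had been removed, for 10 pairs. Mertk and Tyro3 had a Pearson r of 0.592 (permutation p = 0.0142, adjusted p = 0.142) and a Spearman rho of 0.447 (permutation p = 0.0513, adjusted p = 0.257). Mertk and Gas6 had an r of 0.505 (permutation p = 0.0348, adjusted p = 0.174) and a rho of 0.546 (permutation p = 0.0170, adjusted p = 0.170). Without the 2 arrays farthest from the median of Mertk, r was 0.442 with Tyro3 and 0.432 with Gas6. Within single chips r was positive on 4 of 6 chips with Tyro3 and on 5 of 6 with Gas6. No pair passed after adjustment. The correlation of Mertk was -0.203 with Axl and 0.0975 with Pros1, and the other 6 pairs had r between -0.365 and 0.260. Without the 2 arrays of chip 2 that stand apart, r of Mertk was 0.609 with Tyro3 and 0.514 with Gas6. It was then -0.257 with Axl and 0.0911 with Pros1. The highest of the other 6, Axl with Pros1, moved from 0.260 to -0.0677.

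**Figure D4:**
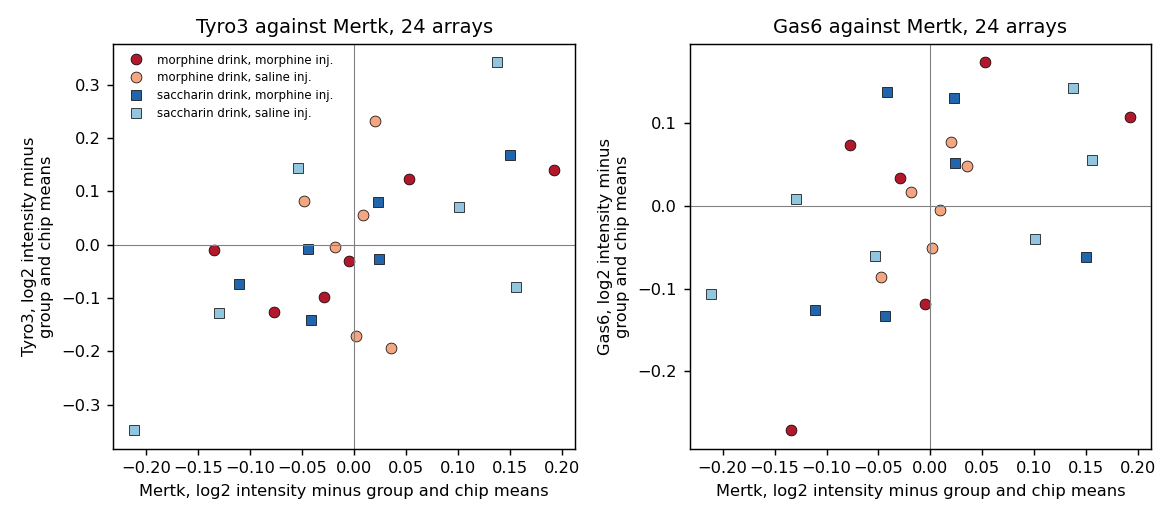
Tyro3 (left) and Gas6 (right) against Mertk on 24 arrays, each axis in log2 intensity after the group and chip means were removed, with 1 symbol per group. Arrays with high Mertk tend to have high Tyro3 (r 0.592) and high Gas6 (r 0.505), with wide scatter, and neither passed after adjustment over 10 pairs.

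The 10 genes whose pattern over the 24 arrays was most like that of Mertk, by r after chip means were removed, were Sult1a1, a sulfotransferase gene (0.933), Htra1, a secreted serine protease gene (0.915), Plin4, a lipid droplet coat gene (0.914), Fkbp5, a co-chaperone gene of the glucocorticoid receptor (0.902), Tsc22d3, the glucocorticoid-induced leucine zipper gene (0.892), Mfsd2a, a lipid transporter gene of the blood-brain barrier (0.882), Pglyrp1, a peptidoglycan recognition protein gene (0.880), Tppp3 (0.871), Cpm, a carboxypeptidase gene (0.848), and Gjb6, an astrocyte connexin gene (0.846). The injection is part of this measure, and all 10 were higher after it, by 0.46 (Htra1) to 3.14 (Plin4) averaged over drinks. Without the 2 arrays of chip 2, r lay between 0.839 and 0.935. Once group means were removed as well, the 5 most alike were Tubb4a, a tubulin gene of oligodendrocytes and neurons (0.828), Tmem63a, an ion channel gene (0.825), Coro2b (0.794), Hgsnat, a lysosomal enzyme gene (0.775), and Tomm6, of the mitochondrial import complex (0.769). None of these 5 passed the threshold for the injection averaged over drinks (adjusted p 0.655 to 0.892 by limma). They are the highest of 13748 genes, given as a description.

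Side by side with Mertk stood genes known to rise with glucocorticoid hormones. Fkbp5 differed between injections by 0.75 (SE 0.0856) in morphine drinkers and 0.97 in saccharin drinkers, Tsc22d3 by 1.05 (SE 0.0888) and 1.09, and Plin4 by 3.21 (SE 0.229) and 3.08, against 0.53 and 0.48 for Mertk. Each of these 3 genes passed in both kinds of drinkers (adjusted p 3.19e-04 or less by limma). Of 23 tested genes on a list of 24 glucocorticoid-induced genes, 6 rose in morphine drinkers, 11 in saccharin drinkers and 13 averaged over drinks, and 0 fell. Over all 13748 genes the shares that rose were 0.0655%, 0.298% and 0.516% in that order. The list's median was 0.61 averaged over drinks, against -0.0023 over all genes. Without the 2 arrays of chip 2 the counts were 5, 12 and 15. The list and the 3 genes were named with earlier results of these data known and are no independent evidence of their direction.

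**Figure D5:**
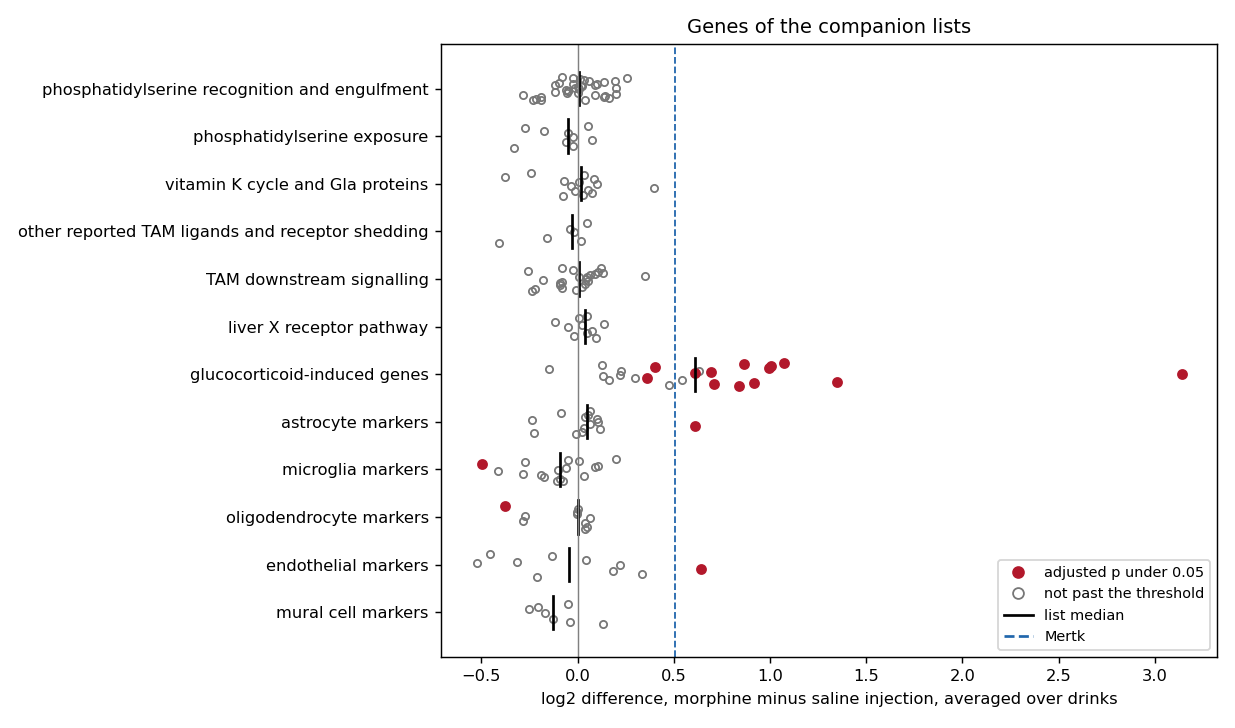
Log2 difference between morphine and saline injection, averaged over drinks (horizontal axis), of the tested genes of 12 lists (rows), with filled points for genes past an adjusted p of 0.05, a bar for each list's median and a dashed line at Mertk (0.50). The filled points are 13 glucocorticoid-induced genes, Gjb6 among them, and 1 gene each among the markers of astrocytes (Gjb6 again), microglia, oligodendrocytes and endothelium, with 0 in the lists of the TAM pathway.

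The other genes through which TAM receptors act were followed in 6 lists. Over these, 98 different genes were tested and 0 passed by limma averaged over drinks, 5 being higher and 3 lower at an unadjusted p under 0.05. Over all 13748 genes 0.691% passed and 1140 had an unadjusted p under 0.05, so both counts over the lists were near those of any genes. None passed in morphine drinkers (4 higher and 4 lower unadjusted) or in saccharin drinkers (2 higher and 3 lower unadjusted). Their median difference averaged over drinks was 0.0047, against -0.0023 over all 13748 genes. The counts past the threshold were also 0 in these lists without the 2 arrays of chip 2.

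By role, 36 of 43 genes of phosphatidylserine recognition and engulfment were tested, with a median of 0.0065 and a range of -0.28 to 0.26. The smallest p values there were those of Jmjd6, a gene once described as a phosphatidylserine receptor (0.14, SE 0.0524, adjusted p = 0.456 by limma), and Trio (0.14, SE 0.0571, adjusted p = 0.508). Of 14 genes of phosphatidylserine exposure 9 were tested, with a median of -0.05. Atp11b, a flippase gene, came closest at -0.33 (SE 0.0823, adjusted p = 0.0885), and Plscr1, a scramblase gene, stood at -0.27 (SE 0.155, adjusted p = 0.701).

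Of 19 genes of the vitamin K cycle and of proteins with the vitamin K-dependent domain, 14 were tested, with a median of 0.02. Proz, the gene of protein Z, stood at 0.40 (SE 0.147, adjusted p = 0.420 by limma) and Prrg4 at -0.38 (SE 0.212, adjusted p = 0.700). Of 7 genes of other reported ligands and of the proteases that shed the receptors, 6 were tested, with a median of -0.03. The sheddase gene Adam10 stood at -0.41 (SE 0.241, adjusted p = 0.723) and Lgals3, the gene of galectin-3, at -0.16 (SE 0.116, adjusted p = 0.798).

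Of 32 genes of signalling below the receptors 23 were tested, with a median of 0.0061. Ifnar2, a subunit of the type I interferon receptor, stood at -0.22 (SE 0.0724, adjusted p = 0.309 by limma) and the ubiquitin ligase gene Cbl at 0.35 (SE 0.136, adjusted p = 0.452). Of 14 genes of the liver X receptor pathway, which is known to induce Mertk in macrophages, 10 were tested, with a median of 0.04. The cholesterol exporter gene Abcg1 stood at 0.14 (SE 0.0903, adjusted p = 0.764) and the receptor partner gene Rxrb at 0.07 (SE 0.0552, adjusted p = 0.807).

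Markers of the cell types that carry Mertk were measured on the same arrays. Over all 13748 genes 0.691% passed averaged over drinks, the share to hold beside the counts below. All 14 astrocyte markers were tested and 1 rose averaged over drinks, the connexin gene Gjb6 (0.61, SE 0.0845, adjusted p = 0.00122 by limma), which is also on the glucocorticoid list. The list's median was 0.05. The mean over the 14 genes was 11.97 to 12.24 in morphine drinkers after the morphine injection against 11.96 to 12.26 after saline, and 12.04 to 12.19 in saccharin drinkers after the morphine injection against 11.88 to 12.15 after saline. Of 18 microglia markers 17 were tested and 1 fell, the fractalkine receptor gene Cx3cr1 (-0.49, SE 0.0910, adjusted p = 0.00975), with a list median of -0.09. The mean over the 17 genes was 9.93 to 10.41 in morphine drinkers after the morphine injection against 10.14 to 10.64 after saline, and 10.01 to 10.25 in saccharin drinkers after the morphine injection against 9.88 to 10.31 after saline. The groups overlapped in both scores. By drink, Gjb6 passed in morphine drinkers (0.68, SE 0.119, adjusted p = 0.0320 by limma) and not in saccharin drinkers (0.54, SE 0.119, adjusted p = 0.0647). Without the 2 arrays of chip 2 that stand apart, 0 of the 14 astrocyte markers passed in morphine drinkers. Cx3cr1 passed in neither kind of drinkers (adjusted p = 0.241 in morphine drinkers and 0.209 in saccharin drinkers). No gene passed for the interaction, so passing in 1 kind of drinkers alone shows no difference between them.

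Among the other cell types, 1 of 10 tested oligodendrocyte markers fell averaged over drinks, the lineage factor gene Sox10 (-0.38, SE 0.0605, adjusted p = 0.00327 by limma). Of 10 tested endothelial markers 1 rose, the glucose transporter gene Slc2a1 (0.64, SE 0.0965, adjusted p = 0.00183). That list was split, with a median of -0.05 and a range of -0.52 to 0.64. At an unadjusted p under 0.05 by limma, 3 of its genes were higher and 3 lower, against 1140 of all 13748 genes in either direction. By drink, Sox10 and Slc2a1 passed in saccharin drinkers (adjusted p = 0.00686 and 0.0271) and not in morphine drinkers (0.716 and 0.178). Slc2a1 differed by 0.70 in saccharin drinkers and 0.58 in morphine drinkers (SE 0.137), and Sox10 by -0.55 and -0.21 (SE 0.0856). Neither passed for the interaction, so no difference between the 2 kinds of drinkers is shown. Without the 2 arrays of chip 2 that stand apart, 1 of the 10 endothelial markers was higher in morphine drinkers, against 0 with them. The markers of mural cells (7 tested), border macrophages (4), medium spiny neurons (10), cortical projection neurons (4) and blood cells (3) gave 0 past the threshold by limma, and 1 of them, the border macrophage gene F13a1 (0.23, adjusted p = 0.506), had an unadjusted p under 0.05. At that level, averaged over drinks, 3 of 17 microglia markers and 2 of 10 oligodendrocyte markers were lower and 0 higher. Of 14 astrocyte markers 1 was higher and 1 lower. Over the 24 arrays, with group and chip means removed, Mertk correlated at 0.601 with the mural cell score (rho 0.530), 0.555 with the endothelial score (rho 0.418) and 0.530 with the oligodendrocyte score (rho 0.536), each with an adjusted p of 0.0749 by permutation of r over 9 scores. Adjusted permutation p for rho was 0.0972, 0.236 and 0.0972 in that order. Without the 2 arrays farthest from the median of the x axis, r was 0.581, 0.474 and 0.485. Without the 2 arrays of chip 2 that stand apart it was 0.600, 0.583 and 0.529. Its correlation with the astrocyte score was 0.326 (permutation p = 0.157, adjusted p = 0.235) and with the microglia score 0.203 (permutation p = 0.406, adjusted p = 0.456), with rho of 0.316 and 0.212. These 9 correlations were chosen after the data had been seen, and the part of cell type makeup in the Mertk difference was not tested.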

How the data were processed

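Per the file headers, the authors deposited linear intensity values of each probe, not normalized between arrays. Background subtraction is a step not given in the sources used here. A second table that the authors deposited holds log2 values. These ranked the probes of each array as the intensities did, lay within 0.0351 of quantile-normalized log2 intensities, and served as an alternative. Per the labels, RNA was extracted with Trizol, treated with DNase I and turned into biotinylated cRNA.

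Intensities were corrected by normexp with an offset of 50, put on the log2 scale and quantile-normalized (limma 3.58.1, R 4.3.3). The platform annotation names 1 gene for 34885 of 45281 probes, several for 18 and none for 10378. Probes with 1 symbol whose mean lay above 7.05, the 40th percentile of the array, were kept, and the brightest stood for its gene, which left 13748 genes. The model for each gene (lmFit, then eBayes, 24 arrays) held group and chip. P-values are two-sided and adjusted with the Benjamini-Hochberg method across all 13748 genes, at a threshold of 0.05. The number of arrays limits the precision, and the SE of a difference between 2 groups had a median of 0.142. Correlations had 100000 permutations within chips (Python 3.11.15). The fit was tested on simulated data.

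The 5 genes and the companion lists were chosen with earlier results of these data known. The text names all 5 genes, up to 4 passing members of a list or the 2 of smallest p where none passed, the 10 and 5 genes most correlated with Mertk, and Fkbp5, Tsc22d3 and Plin4. No number in a sample title recurs in another group, so none pairs samples, and no label says outright that the samples of a group are separate mice, so p-values measure the spread between these samples. Alternatives changed the background step, the normalization or the filter, took the authors' log2 values, averaged probes or tested each, treated chip and position in other ways, fitted fewer groups, weighted arrays, changed the prior, or left out arrays or chips. Counts of the lists without the 2 arrays that stand apart were added after the data had been seen.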

Additional observations from a re-analysis of the deposited data

Results flagged for a closer look

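For 1 of the 24 groups of 6 arrays examined, formed by 6 probes in 4 groups, an array lay far from the others of its group. Pros1 was 9.65 on replicate 31 of the morphine drinkers injected with morphine, on chip 2, against 9.94 for the next lowest array of the group. The gap was 0.818 of the whole range of the group. Chance gives about 1 such array in 20 groups. The same array is 1 of the 2 with low medium spiny neuron genes.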

How the results depend on the processing

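The number of the 5 genes past the threshold, 1 (Mertk) in each injection comparison, became 0 in both kinds of drinkers under 4 settings: scaling to a common median, no chip term, position on the chip added, and only the groups of the comparison. Averaged over drinks it became 0 under scaling to a common median only. Leaving out 1 array or 1 chip gave 0 to 1 in morphine drinkers and in saccharin drinkers, and 1 in every case averaged over drinks. It was 0 without chip 1, 4 or 6 in morphine drinkers and without chip 1, 4, 5 or 6 in saccharin drinkers. Every fit without a chip held fewer arrays, and not all of these fits gave 0. The cause was not tested for any of these settings. The comparisons of drink and the interaction gave 0 under every setting run. The Mertk difference kept its sign throughout, between 0.47 and 0.58 over 46 settings in morphine drinkers, 0.39 and 0.53 over 46 in saccharin drinkers, and 0.46 and 0.54 over 45 averaged over drinks. Over all genes the number past the threshold ran from 2 to 63 around 9 in morphine drinkers, from 10 to 71 around 51 in saccharin drinkers and from 22 to 169 around 95 averaged over drinks, the highest of the first and the last with array weights. Scaling to a common median gave 5, 10 and 22. Scaling to a common median moved the median of all genes in the interaction to 0.10. No paired analysis was possible because the replicate numbers in the labels differ between all groups; this concerns pairing by number alone. The arrays were matched by chip instead, as a term of the fit and in the within-chip differences.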
